A study of Mus musculus with 6 samples.

Results

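The levels of 10 transcription factors and cofactors of erythroid and megakaryocyte fate were followed in mouse blood progenitors sorted for forced expression of EVI1: Gata1, Gata2, Gata3, Zfpm1, Tal1, Lmo2, Ldb1, Klf1, Nfe2 and Gfi1b. They were chosen by gene symbol, as genes with a probe set annotated to that gene alone, and all 10 were found, with 12 probe sets, among 18192 genes on the array. Lineage-negative (Lin-) progenitors, which are marrow cells depleted of mature blood cells, came from C57BL/6J mice whose Rosa26 locus carries rtTA, a transactivator that works when doxycycline is present. The culture held SCF, Flt3 ligand and IL-11 at 50 ng/ml each, with IL-3 at 20 ng/ml. The EGFP-positive group (3 arrays) had been transduced with pRRL.TET.EVI1.IRES.EGFP, which makes EVI1 and EGFP from 1 doxycycline-responsive transcript. Doxycycline (1 µg/ml) was given the next day, and cells with high EGFP were sorted 20 hours later. The labels give the same doxycycline dose and the same 20 hours for the EGFP-negative group. The EGFP-negative group (3 arrays) is labelled untransduced, while the design text describes a sort for negative or low EGFP, so whether it saw the vector is not settled by the labels. The word untransduced also stands in the description of the EGFP-positive samples, and the groups used here follow the sample titles. No label says that replicates came from separate mice or cultures, so the spread behind each p-value is that between these samples and may be technical.

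GATA factors bind the DNA letters GATA through zinc fingers. GATA2 works in stem cells, early progenitors and mast cells, GATA1 takes over its sites as erythroid cells and megakaryocytes mature, and GATA3 serves T cells and innate lymphoid cells. FOG1, encoded by Zfpm1, joins GATA factors to corepressors. TAL1, an E-box-binding helix-loop-helix factor, is joined to GATA proteins by the adaptor LMO2 and the dimerizing protein LDB1, and KLF1, NF-E2 and GFI1B act with this complex on globin, red cell and platelet genes. EVI1, the product of Mecom, is a zinc finger factor that can itself bind GATA-like sites.

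The promoters are shown because GATA factors are known to bind near many of these genes. The part of such sites in the changes reported below was not tested. RefSeq promoter sequences (build GRCm38.p6) were found for 8 of the 10 genes, with 12 transcript starts. Over the 250 bases before each start, the letters GATAA on either strand occurred in 4 of the 12 promoters, 1 each of Klf1, Tal1, Gfi1b and Ldb1, and in 22.6% of all 32851 promoters of the same length. Capitals mark GATAA, or TTATC where it lies on the other strand. Each line gives bases before a start, written 5′ to 3′ on the gene's strand. The windows are Klf1 at chr8:84901832-84901981 (plus strand), Gfi1b at chr2:28621983-28622132 (minus strand), the first Tal1 start at chr4:115056176-115056425 (plus strand), Gata1 at chrX:7967911-7968060 (minus strand) and the first Gata2 start at chr6:88193741-88193890 (plus strand).
Klf1: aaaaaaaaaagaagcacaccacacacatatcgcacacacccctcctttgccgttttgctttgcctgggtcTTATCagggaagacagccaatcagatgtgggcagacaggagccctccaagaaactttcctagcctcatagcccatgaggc
Gfi1b: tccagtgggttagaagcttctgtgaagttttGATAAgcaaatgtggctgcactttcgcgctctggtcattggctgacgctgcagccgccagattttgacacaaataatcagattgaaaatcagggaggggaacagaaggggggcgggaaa
Tal1: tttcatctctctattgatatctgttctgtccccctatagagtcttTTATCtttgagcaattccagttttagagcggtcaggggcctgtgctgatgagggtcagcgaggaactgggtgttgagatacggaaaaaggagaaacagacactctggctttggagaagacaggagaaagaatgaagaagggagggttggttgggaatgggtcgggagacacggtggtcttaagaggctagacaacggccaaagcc
Gata1: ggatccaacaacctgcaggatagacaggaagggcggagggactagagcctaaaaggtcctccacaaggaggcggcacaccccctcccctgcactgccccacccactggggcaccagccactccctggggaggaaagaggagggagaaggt
Gata2: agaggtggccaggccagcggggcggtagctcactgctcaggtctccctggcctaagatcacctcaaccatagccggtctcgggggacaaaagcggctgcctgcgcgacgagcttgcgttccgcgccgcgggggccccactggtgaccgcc

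In Klf1 the match began 80 bases before the start and was part of the longer GATAAGA, read on the opposite strand, which 2.13% of all promoters hold. An E-box (CANNTG) began 59 bases before the Klf1 start. In Gfi1b a GATAA match at 119 bases lay beside an E-box at 113 bases. Tal1 had its match at 205 bases before the first start, and Ldb1 had matches at 240 and 200 bases before 1 of its 3 starts, the second within AGATAAG (2.74% of all promoters). E-boxes were found in 4 of the 12 promoters, against 66.2% of all promoters. A CACC-type box (CCNCNCC on either strand, the kind of GC-rich letters that KLF factors bind) was found in 11 of the 12 promoters, against 65.4% of all promoters, and successive matches of it can overlap. Neither Gata1 nor Gata2 held GATAA in these windows, which says only that the letters are not there.

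**Figure D1:**
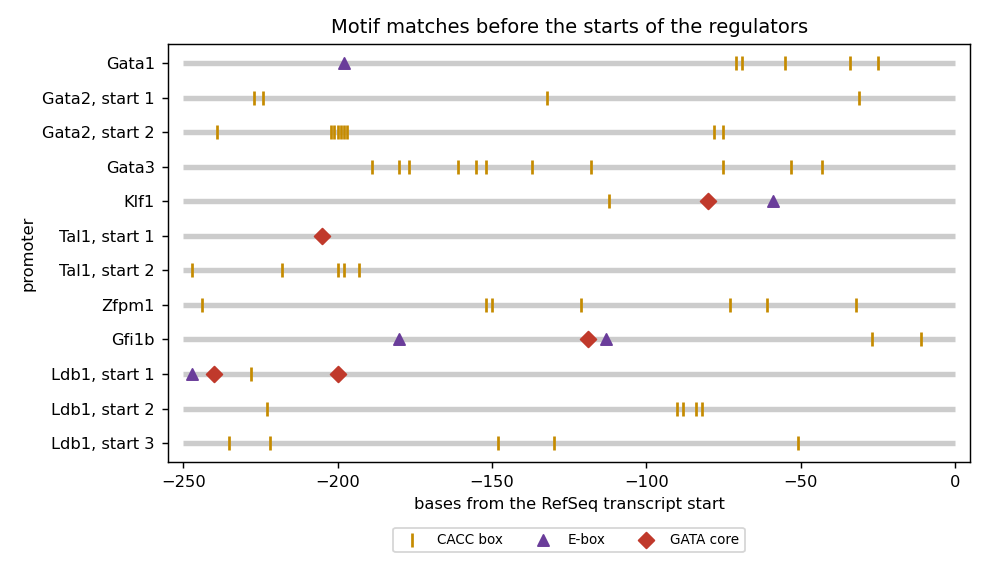
Positions of motif matches in the 250 bases before each of 12 RefSeq transcript starts of 8 genes. The x axis gives bases from the start, each grey bar is 1 promoter, and symbols mark the first base of a match to GATAA (GATA core), CANNTG (E-box) or CCNCNCC (CACC box). GATAA occurs in Klf1, Tal1, Gfi1b and Ldb1 only among these 8 genes, and for Klf1 it lies 80 bases before the start.

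The arrays were alike in distribution, with median log2 values of 5.11 to 5.14. Pearson's r across probe sets was 0.989 or more within groups and 0.968 to 0.969 between them. The excess of 3′ over 5′ signal, which reflects RNA quality and labelling, differed between the groups. For Actb it was 0.80 ± 0.05 (SD, n = 3) in the EGFP-negative and 1.00 ± 0.03 in the EGFP-positive arrays (log2 of the ratio), and its part in the results below was not tested. Mecom itself read 8.26 ± 0.09 in the EGFP-negative and 7.97 ± 0.20 in the EGFP-positive arrays (adjusted p = 0.13), but whether its probe sets match the EVI1 sequence of the vector was not stated by the labels, so this does not check them. The progenitor markers Kit and Cd34 had means of 7.58 and 10.48 in the EGFP-negative and 6.60 and 7.74 in the EGFP-positive arrays. Both were called lower (limma adjusted p = 0.0021 and 3.7e-05). Ptprc (CD45), which is not limited to progenitors, had means of 10.74 and 10.84 and did not pass (adjusted p = 0.47, limma).

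In EGFP-positive cells most of the 10 regulators were higher. Of the 10 genes 7 rose, by 1.47-fold for Nfe2 to 4.26-fold for Gata3, and 5 of them by more than 2-fold. One fell, the repressor gene Gfi1b, and Gata2 and Lmo2 did not pass the test. Over all genes 33.2% passed (limma on log2 values, Benjamini-Hochberg adjusted p under 0.05), 16.0% higher and 17.2% lower, and 5.95% were called higher by at least 2-fold. All 10 regulators lay above the median gene in mean signal, and among such genes 59.4% passed, 28.2% higher and 31.2% lower. The median difference of the 10 genes was 1.01 on the log2 scale, against 0.02 for all genes. In 9 of the 10 the groups did not overlap, which held for 48.2% of all genes. Each array measured a sorted fraction, so fewer cells of a type and less RNA per cell cannot be told apart.

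**Figure D2:**
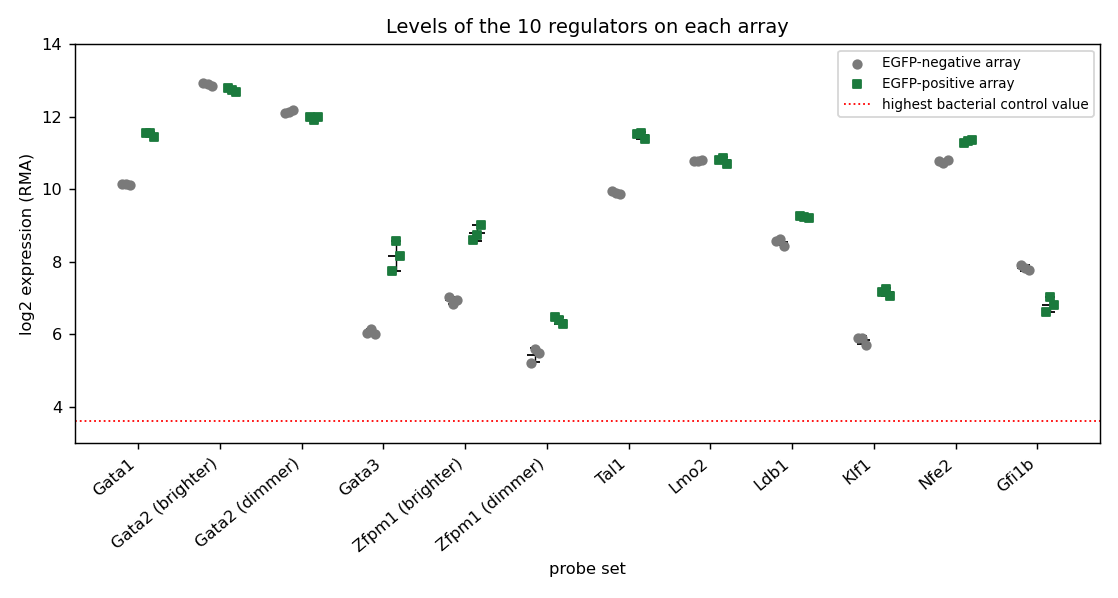
Log2 expression (RMA, y axis) of the 12 probe sets of the 10 genes (x axis) on each of 3 EGFP-negative (grey circles) and 3 EGFP-positive (green squares) arrays, with mean and SD as black bars. The dotted line is the highest value of the bacterial control probe sets, 3.61, and every array reads above it for each probe set. Heights of different probe sets cannot be compared with each other.

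Gata1, the master regulator of red cell and megakaryocyte maturation, read 10.14, 10.14 and 10.13 on the EGFP-negative arrays and 11.56, 11.53 and 11.45 on the EGFP-positive arrays. The groups lay far apart compared with the spread within them. The rise was 1.38 (SE 0.08; 2.60-fold; limma, Benjamini-Hochberg adjusted p = 8.0e-05), and 3.74% of all genes rose more.

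Gata2, which keeps early progenitors immature, was read by 2 probe sets, both of a kind that matches several transcripts of the gene. The brighter, 1428816_a_at, read 12.91, 12.90 and 12.85 in the EGFP-negative and 12.78, 12.73 and 12.69 in the EGFP-positive arrays, and 1450333_a_at read 12.09, 12.11 and 12.18 against 11.99, 11.91 and 11.97. In each probe set every EGFP-positive array lay below every EGFP-negative array, by a small step. The difference was -0.15 (95% interval -0.34 to 0.03, adjusted p = 0.18, limma), so a fall larger than 0.34 lay outside the interval. When the variance was allowed to depend on signal (eBayes with trend), the same difference passed (adjusted p = 0.0044), and this was the only 1 of 15 alternative settings in which it did.

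Gata3, the GATA factor of T cells and innate lymphoid cells, had the largest difference of the 10. It read 6.04, 6.16 and 6.01 in the EGFP-negative arrays and 7.73, 8.57 and 8.17 in the EGFP-positive arrays. The EGFP-positive arrays were widely spread (SD 0.42) but all lay at least 1.58 above the highest EGFP-negative array. The rise was 2.09 (SE 0.21; 4.26-fold; limma adjusted p = 6.7e-04). Of 18 measured T cell and innate lymphoid genes, 2 rose and 4 fell, where 16.0% of all genes passed as higher and 17.2% as lower. Those that rose were Rora, a nuclear receptor of innate lymphoid cells (1.65), and Ptcra, the pre-T cell receptor alpha chain (at least 4.70-fold higher). The interleukin-7 receptor gene Il7r (-3.43), the interleukin-2 receptor gene Il2ra (-2.75), Id2 (-2.25) and Cd3e, a chain of the T cell receptor complex (at least 3.75-fold lower), fell. Cd3g, Rag1 and Rag2 lay under the bacterial control ceiling of 3.61 on every array. The log2 of the list's summed signal was 12.84 to 12.90 in the EGFP-negative and 12.22 to 12.33 in the EGFP-positive arrays. Bright genes weigh most in such a sum, among them Id2, with means of 11.15 and 8.90. The median difference of the list was -0.18, or 0 with dim values raised to the ceiling.

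Zfpm1, which encodes FOG1, rose on both of its probe sets. Probe set 1451046_at read 7.03, 6.84 and 6.94 in the EGFP-negative and 8.59, 8.73 and 9.02 in the EGFP-positive arrays, and 1423603_at read 5.21, 5.58 and 5.48 against 6.47, 6.41 and 6.28. Both separated the groups without overlap. They differed in size: 1.84 (SE 0.13; 3.59-fold; adjusted p = 1.8e-04 over genes) for the brighter, and 0.96 (SE 0.13; adjusted p = 0.0028 over probe sets, of which 24.1% passed) for the dimmer. The mean of both rose by 1.40.

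Among the genes of the LDB1 complex, Tal1 rose most. Tal1 read 9.95, 9.90 and 9.86 in the EGFP-negative and 11.51, 11.56 and 11.38 in the EGFP-positive arrays, and the lowest EGFP-positive array exceeded the highest EGFP-negative array by 1.42. Its difference was 1.58 (SE 0.09; 2.99-fold; limma adjusted p = 7.7e-05). Ldb1, the protein that dimerizes and holds enhancers and promoters together, read 8.56, 8.61 and 8.44 against 9.25, 9.23 and 9.20, and the groups again did not overlap. Its rise was 0.69 (SE 0.08; 1.61-fold; adjusted p = 0.0013). The adaptor Lmo2 read 10.79, 10.76 and 10.79 in the EGFP-negative and 10.80, 10.87 and 10.70 in the EGFP-positive arrays, and it was the only 1 of the 10 whose groups overlapped. Its difference of 0.01 had a 95% interval of -0.19 to 0.21 (adjusted p = 0.93), so changes beyond about that size in either direction lay outside the interval.

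Klf1, the activator of adult beta globin and many red cell genes, was close to Gata1 in the size of its change. It read 5.91, 5.88 and 5.70 in the EGFP-negative and 7.17, 7.26 and 7.05 in the EGFP-positive arrays, with no overlap. The rise was 1.33 (SE 0.10; 2.51-fold; adjusted p = 2.3e-04, limma). Nfe2, the haematopoietic subunit of NF-E2 that drives platelet release and globin expression, read 10.78, 10.72 and 10.80 against 11.26, 11.34 and 11.34. That was a smaller but separate step, of 0.55 (SE 0.08; 1.47-fold; adjusted p = 0.0025), and 13.0% of all genes rose more.

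Gfi1b, a repressor needed for red cell and platelet formation, went the other way. It read 7.91, 7.83 and 7.76 in the EGFP-negative and 6.61, 7.04 and 6.80 in the EGFP-positive arrays. Every EGFP-positive array lay at least 0.72 below the lowest EGFP-negative array. The gene fell by 1.02 (SE 0.13; 2.02-fold lower; adjusted p = 0.0016, limma). Of all genes 6.24% were called lower by at least 2-fold, and 6.36% had a larger fall. Its paralogue Gfi1, which acts in granulocytes and lymphoid cells, had a difference of -1.10 (adjusted p = 0.028), a call that held when EGFP-positive replicate 1 was left out and was lost when any other array was, with the highest adjusted p, 0.091, in the absence of EGFP-negative replicate 1.

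**Figure D3:**
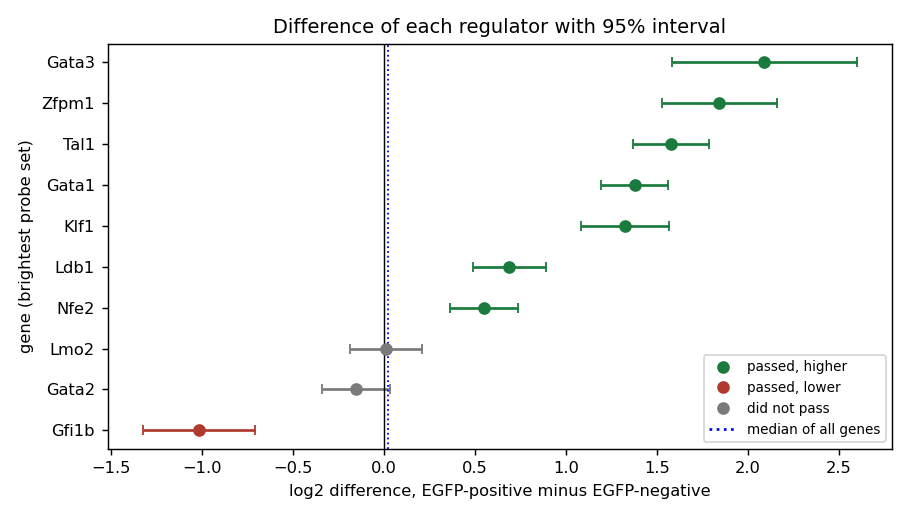
Log2 difference between EGFP-positive and EGFP-negative arrays (x axis) of each gene's brightest probe set (y axis), with the 95% interval from limma as bars; green passed as higher, red as lower, grey did not pass. The 7 rises run from 0.55 for Nfe2 to 2.09 for Gata3, Gfi1b lies at -1.02, and the intervals of Lmo2 and Gata2 include 0.

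Differences between genes within an array show which regulators moved unequally. Gata1 minus Gata2 went from -2.75 ± 0.03 (SD, n = 3) to -1.22 ± 0.02, a shift of 1.53. Nfe2 minus Gfi1b went from 2.93 ± 0.09 to 4.50 ± 0.18, a shift of 1.57. In both the groups were fully separated, which gave the smallest p that 3 against 3 arrays allow in an exact two-sided permutation test, 0.10 (0.13 adjusted over the 4 pairs). Gata1 and Nfe2 were higher, and Gata2 and Gfi1b lower, on every EGFP-positive array. The separation of these differences, and so their p, was therefore fixed by the single genes and is no further evidence. Klf1 minus Gata1 moved by -0.05 (exact permutation p = 0.50), from -4.30 ± 0.10 to -4.36 ± 0.07, less than the spread between arrays. Gata1 minus Zfpm1 moved by -0.47 (exact permutation p = 0.10) with the brighter Zfpm1 probe set and by -0.025 with the mean of both, so an unequal rise of these genes rests on the choice of probe set.

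**Figure D4:**
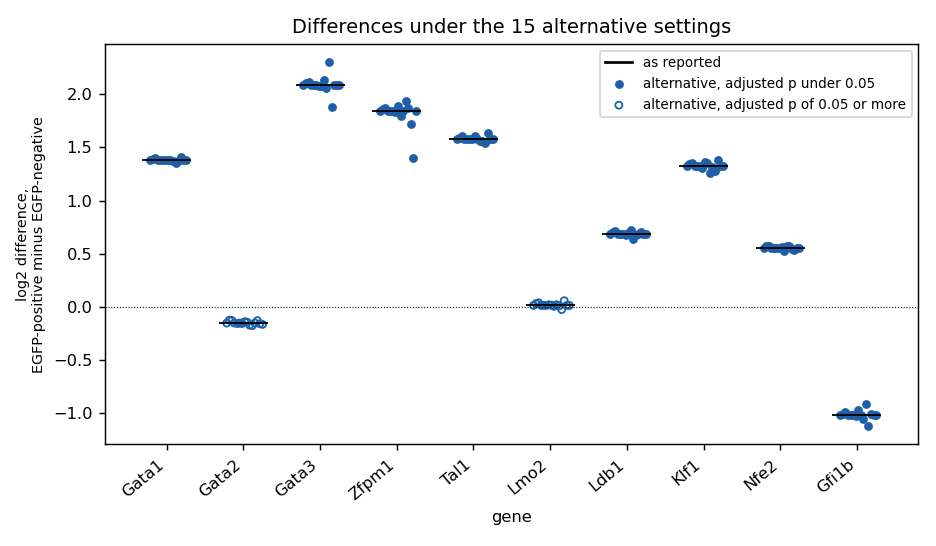
Log2 difference (y axis) of each of the 10 genes (x axis) as reported (black line) and under 15 alternative settings (blue; filled where the adjusted p was under 0.05). The 8 called genes stay filled in every setting shown, Gata2 passes in 1, whose point lies on the line, and Lmo2 lies around 0.

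The genes nearest to each regulator were found by the distance between log2 values centred on each gene's mean, over the 6 arrays, as a description. Nearest to Gata1 were Arhgap4 (distance 0.06), Bcl9l (0.08) and Cdc25b (0.08), which rose by 1.40, 1.33 and 1.44. Klf1 had Ephx1 (0.07), Afdn (0.10) and Ccndbp1 (0.14) nearest, and Tal1 had B3gnt5 (0.08), Ypel2 (0.14) and Smpdl3a (0.17). Those nearest to Nfe2 were Malat1 (0.04), Mknk2 (0.07) and Irf7 (0.08). For Ldb1 they were Cmas, Etohd2 and the platelet integrin gene Itgb3 (distance 0.11), and for Zfpm1 they were Arhgef12, Mettl27 and Celsr1. Gata3, with its wider spread, had Atp13a2 nearest at 0.40, followed by Septin4 and Ddr1. Gfi1b had Iars, Dpy19l1 and Sgo2a nearest, which fell by 1.09, 1.01 and 1.03 on the log2 scale. No 2 of the 8 called regulators were among each other's 3 nearest genes. This distance largely follows the size of the group difference, so nearness here means mainly a change of like size.

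Partners of the TAL1 complex rose more often than they fell. Of 12 measured partners 6 rose and 0 fell (median 0.36). Over all genes 16.0% passed as higher, and among genes above the median in mean signal 28.2%. The rises included Lyl1, the close relative of TAL1 (1.02, from 9.16 ± 0.15 to 10.19 ± 0.07), Ssbp2, which stabilises LDB1 (1.00), and Cbfa2t3, the corepressor ETO2 (1.08). With each array left out in turn, 4 to 5 of these partners rose. The E proteins that pair with TAL1 did not pass, with differences of 0.04 for Tcf3, -0.16 for Tcf12 and 0.05 for Tcf4. Of 8 NFE2 partners and relatives 4 rose and 0 fell (median 0.34): the small MAF genes Mafg (0.50) and Mafk (0.39), the competing repressor gene Bach1 (0.43) and Nfe2l2 (0.88), the NRF2 gene of the oxidant response. The call of Mafk held when EGFP-positive replicate 3 was left out and was lost when any other array was (adjusted p up to 0.094).

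Corepressors that work with GFI1B and FOG1 were divided. Of 21 measured, 5 rose and 5 fell (median 0.18). Over all genes 16.0% passed as higher and 17.2% as lower, and among genes above the median in mean signal 28.2% and 31.2%. The rises were Hmg20b, a subunit of the LSD1 complex (0.63), Mta2 (0.50) and Mta3 (0.31), NuRD subunits, Phf21a (0.38) and Rcor1 (0.34), both of the LSD1 complex. The falls were Mbd3, another NuRD subunit (-0.84), Kdm1a, the LSD1 demethylase that GFI1B recruits (-0.38), the deacetylase gene Hdac2 (-0.53), Gatad2a (-0.25) and Gfi1. Gfi1 was counted in this list although it is the paralogue of Gfi1b and not one of its corepressors. The calls of Hmg20b, Mta2, Mbd3 and Kdm1a held with each array left out in turn. That of Gatad2a was lost without any 1 array (adjusted p up to 0.12), that of Rcor1 without any but EGFP-positive replicate 3 (up to 0.074) and that of Mta3 without any but EGFP-positive replicate 1 (up to 0.13). Phf21a lost its call without EGFP-negative replicate 1 (0.064) or 3 (0.060) and with the replicate block (0.067), and Hdac2 without EGFP-negative replicate 2 (0.076) or 3 (0.075). These counts went down to 2 rises and 2 falls without EGFP-negative replicate 3, to 2 and 3 without EGFP-negative replicate 1, to 3 and 2 without EGFP-negative replicate 2, and to 3 and 3 without EGFP-positive replicate 2, and 3 fell without EGFP-positive replicate 3. The relatives of the 10 regulators were mostly not above background: of 15, 8 lay under the ceiling on all arrays, among them Gata4, Gata5, the FOG2 gene Zfpm2 and Tal2. Lyl1 and Gatad1 (0.47) rose in that list and Gfi1 fell, and the call of Gatad1 was lost when its probe sets were averaged (0.49, adjusted p = 0.087) and with the most variable one (0.52, adjusted p = 0.29). Other regulators of these lineages moved both ways, 6 higher and 7 lower of 23 (median -0.09), near the shares of genes above the median in mean signal. Hhex, a homeobox factor of early blood and endothelium (1.08), and Spi1, the gene of PU.1 (0.51), were among the rises. Id2, an inhibitor of E proteins (-2.25), Myb, which sustains progenitor growth (-0.82), and Cbfb, the partner of RUNX factors (-0.63), were among the falls. Without EGFP-negative replicate 1 the rises in this list numbered 3.

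Of 36 measured erythroid target genes 18 rose and 1 fell (median 0.43, or 0.39 with dim values raised to the ceiling). Over all genes 16.0% passed as higher and 17.2% as lower. The embryonic globin gene Hbb-y rose at least 57.3-fold, the anion exchanger gene Slc4a1 at least 52.2-fold and the water channel gene Aqp1 4.64-fold. Hbb-y and Slc4a1 were each read by a probe set of the _x_at kind, which may also match other transcripts. Hbb-bh1, another embryonic globin gene, did not pass (0.29, limma adjusted p = 0.56). The haem synthesis gene Alas2 was the gene that fell (-1.86, from 5.82 ± 0.09 to 3.96 ± 0.14). Without EGFP-positive replicate 3, 2 erythroid targets were called lower. Epb42, Hba-a1, Hba-x and Rhag lay under the ceiling on every array, and Rhag, although counted among the rises, was not above background in either group (means of 1.43 and 2.56). The probe sets of the alpha globin genes disagreed, and the reason was not tested. That of Hba-a1 had means of 2.98 and 3.22, while that of Hba-a2 was bright in both groups. Its means were 10.96 and 11.34, and it was called higher (0.38, limma adjusted p = 0.011). Among genes with mean signal above the median gene, 11 erythroid targets rose and 0 fell. That filter removed Alas2, Slc4a1 and Hbb-y, so it does not test their calls. Of 24 megakaryocyte target genes 12 rose and 5 fell (median 0.52). The chemokine gene Ppbp (3.00), the platelet tubulin gene Tubb1 (3.00) and the integrin gene Itga2b (0.97) were among the rises, and the thrombin receptor gene F2rl2 (-3.10), Plek (-1.39), the signalling adaptor gene Lat (-1.01), Treml1 (at least 4.65-fold lower) and Cd226 were the falls. Cd226 had means under the ceiling in both groups (3.12 and 1.62), so it has no fold, and its call was lost without EGFP-negative replicate 1 (adjusted p = 0.061) or EGFP-positive replicate 1 (0.056). Among genes above the median level 2 megakaryocyte targets fell, since the filter removed F2rl2, Treml1 and Cd226. Some of these targets had shown their rise in earlier results of the same arrays.

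**Figure D5:**
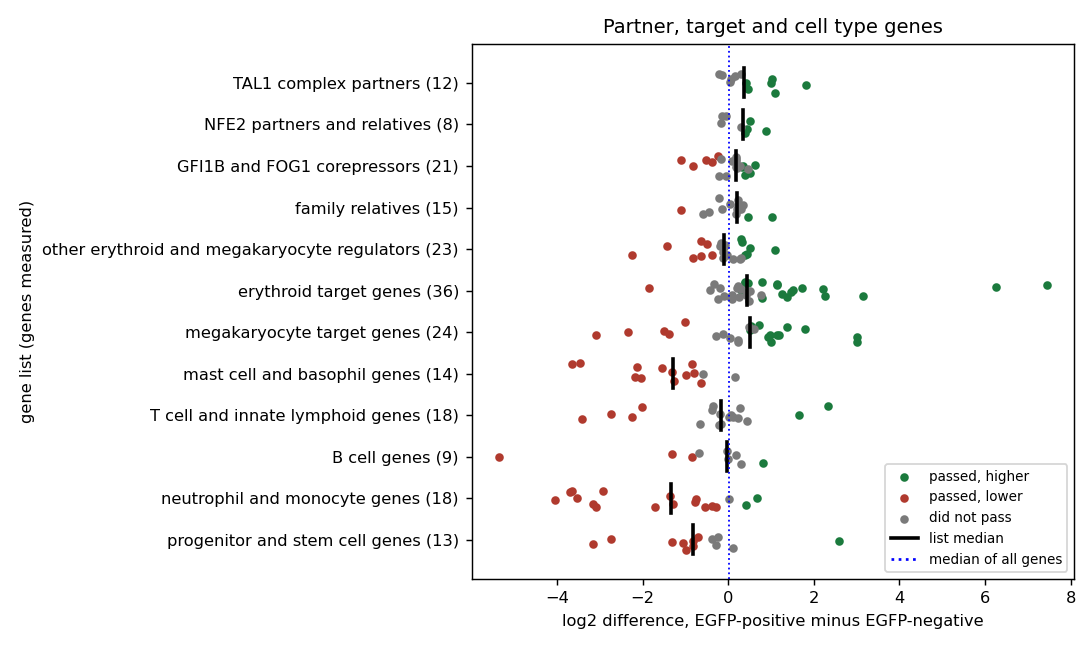
Log2 difference (x axis) of each measured gene of 12 lists (y axis, number measured in brackets), coloured by call, with list medians as black bars and the median of all genes as a dotted line. Erythroid and megakaryocyte targets have medians of 0.43 and 0.52, and mast cell and neutrophil genes of -1.29 and -1.34.

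Markers of other cell types moved beside these results. Over all genes 16.0% passed as higher and 17.2% as lower. Of 14 mast cell and basophil genes, a lineage that depends on GATA2, 12 fell and 0 rose (median -1.29), among them the protease genes Cpa3 (-3.46) and Mcpt8 (-1.55) and Hdc, which makes histamine (-3.65). The log2 of their summed signal was 14.98 to 15.01 in the EGFP-negative and 13.72 to 13.83 in the EGFP-positive arrays, and Tpsab1 lay under the ceiling throughout. Of 18 neutrophil and monocyte genes 15 fell and 2 rose (median -1.34), with summed signal of 16.08 to 16.16 against 15.27 to 15.28, and none lay under the ceiling throughout. Mpo (-3.69), Ctsg (-3.65) and Elane (-2.93), enzymes of primary granules, had the smallest p-values among the falls. The rises were Lyz2 (0.40) and Csf3r (0.66), and the call of Csf3r held when EGFP-positive replicate 1 was left out and was lost when any other array was (adjusted p up to 0.067). In the list of 9 B cell genes (median -0.02) Cd79b rose (0.81), and Dntt (at least 35.9-fold lower), Blnk and Ms4a1 fell. Their list's summed signal was 9.35 to 9.65 against 8.53 to 8.70. Bright genes weigh most in such a sum, and Dntt was the brightest of the list in the EGFP-negative arrays (means of 8.82 and 3.46). Pax5 and Ms4a1 lay under the ceiling throughout. The call of Ms4a1 was lost without EGFP-negative replicate 2 (adjusted p = 0.057) or EGFP-positive replicate 3 (0.053), with the replicate block (0.053) and when its probe sets were averaged (0.055). Among genes above the median level 0 B cell genes fell, since the filter removed Dntt, Blnk and Ms4a1 and so does not test their calls. Of 13 progenitor and stem cell genes 8 fell and 1 rose, with summed signal of 13.93 to 13.98 against 12.99 to 13.00. Fcgr3 (-3.16), Cd34 (-2.75) and Cd48 (-1.33) had the smallest p-values among the falls, and Slamf1, the gene of CD150 (2.59), was the 1 that rose. Fcgr3 was also counted among the neutrophil and monocyte falls, and Kit among those of mast cell and basophil genes. The part of these cell types in the changes of the 10 regulators was not tested.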

How the data were processed

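The 6 samples were each measured on 1 Affymetrix array. For each probe set the authors deposited a log2 value, made by RMA per the submitters' processing notes, which name no software version. Quantile normalization, part of RMA, gives the arrays nearly the same distribution, so a change in total RNA per cell cannot be read. Of 45037 probe sets that are not controls, GEO's platform annotation gave 1 gene for 34945, several for 932 and none for 9160. A gene was represented by its probe set with the highest mean over the 6 arrays.

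All 18192 genes, and separately all probe sets, went into lmFit and eBayes of limma 3.58.1 (R 4.3.3), as EGFP-positive minus EGFP-negative with no covariate, with Benjamini-Hochberg adjustment over the whole table and a threshold of 0.05. Dim probe sets were kept. The highest value of 27 bacterial control probe sets, 3.61, served as a ceiling for background: arrays of the dimmer group under it were set to it and the fold is given as a lower bound. Every step across genes was tested on simulated data. With 3 arrays a group, their number limits the precision.

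The 10 genes, the 12 lists and the motifs were chosen with earlier results of these data known. Named genes were the 10 regulators, the 3 nearest genes of each called regulator and, from each list, up to 3 rises and 3 falls with the smallest p. Further members were named where a list had 5 or fewer calls in a direction. Kit, Ptprc, the E protein genes, Mecom, Hba-a2, Hbb-bh1 and genes under the ceiling were named after their values were seen. List members without a probe set of their own are not analysed here. The alternatives took the replicate number as a block, rescaled the arrays (quantile or median), dropped dim genes, changed eBayes (trend, robust), weighted the arrays, chose probe sets otherwise or left out each array.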

Additional observations from a re-analysis of the deposited data

How the results depend on the processing

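Among the 10 regulators, the 7 rises and the fall of Gfi1b kept their direction and their call under all 15 alternatives, with the highest adjusted p at 0.019, for Nfe2 with the replicate block (limma). With each array left out in turn, 7 rose and 1 fell, and 4432 to 5664 genes passed in all. With eBayes trend 2 regulators and 3 of their probe sets were called lower, since Gata2 was added. Lmo2, which did not pass, ranged from -0.0271 (without EGFP-positive replicate 2, adjusted p = 0.85, limma) to 0.0560 with 1 array left out; the cause was not tested. Gata1 minus Zfpm1 moved to -0.025 with the mean of all probe sets. With the replicate number as a block 4900 genes and 8 regulators passed. Deviations of same-numbered samples correlated at -0.016 to 0.014, so no shared effect of the number was seen. Whether same-numbered samples were paired cannot be settled by this, since a pairing may leave no such trace. For the lists, the same alternatives were added after the data were seen. With the block, the corepressor and other regulator lists had 2 and 3 rises. Scanner files were not used here, so background correction and RMA could not be redone, and rises of genes near the ceiling are bounds only.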
